A study of Rattus norvegicus with 56 samples.

Results

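The genes examined here are the Fos and Jun family and the related factor Atf3, which together make the AP-1 transcription factors: Fos, Fosb, Fosl1, Fosl2, Jun, Junb, Jund and Atf3. A probe belonged to the family where its RefSeq accession was that of a member gene, and each gene was read by its brightest probe. All 8 members were found among the 16575 genes that could be named on the array, and the probes of all 8 passed the filter on dim probes. The material was primary cultures of hippocampal neurons from E18 Sprague-Dawley rat embryos, and no genetic change was made. Dishes received 1 Hz repetitive transcranial magnetic stimulation (rTMS), intermittent theta burst stimulation (iTBS, which delivers pulses in short bursts) or sham handling with the coil at a distance, and were harvested at 0 h or at 2, 8, 24 or 48 h. Untreated cultures were harvested at 0 h only. Expression was measured on 56 one-colour microarrays in 16 groups, and 55 arrays were used, since the grid of 1 array (1 Hz, 2 h, replicate 2) was marked as not good by the scanner software. The labels do not say whether the samples of a group came from separate cultures or embryos, so p-values here measure the spread between samples, which may be technical.

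AP-1 is a dimer of leucine zipper proteins. Fos proteins bind DNA only together with a partner, usually a Jun protein, while Jun proteins can also pair with each other, and the dimers recognise a short palindromic element named the TPA response element (TRE). Fos, Fosb and Junb are immediate early genes, transcribed within minutes of calcium entry or growth factor signalling in neurons and widely used as marks of neuronal activity. Atf3 and Jun are induced by injury and cell stress.

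The running numbers that the submitters gave the samples form 4 series, called A, B, C and D here, and each series holds at most 1 array of sham, 1 Hz and iTBS at each time. The labels do not explain these numbers. The arrays of series A, B and C lay on separate microarray slides, 2, 2 and 3 of them, while D was spread over all 7. Differences among A, B and C therefore cannot be told apart from differences between slides. A series at a single time is called a set below, and there are 20 sets, of which 13 hold all 3 arms. Series A at 8 h and at 24 h holds only a single 1 Hz array. Between 66.1% and 81.8% of probes were well above background on an array. Levels are log2 processed signals scaled within each array, with 0 at the mean of the array, and they compare arrays for 1 probe, never genes with each other. All 9 neuronal markers were well above background on all 55 arrays, but so were all 5 astrocyte and all 4 oligodendrocyte lineage markers, so RNA of glial cells was measured beside that of neurons. In such bulk RNA, fewer cells of a type and less RNA per cell cannot be told apart.

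RefSeq promoter sequence was found for Fosb, Fosl1, Fosl2, Junb and Jund, and not for Fos, Jun and Atf3. The windows of Fosl1 and Junb, both among the more variable members, are printed. Jund, one of the steadier ones, is printed because its window holds a full cyclic AMP response element (CRE). Fosb, which was also variable, and Fosl2 are not printed. The windows cover the 250 bases before the annotated start in build GRCr8, at chr1:212183635-212183884 on the plus strand (Fosl1), chr19:40080876-40081125 on the plus strand (Junb) and chr16:18769772-18770021 on the minus strand (Jund). Capitals mark the CRE (TGACGTCA) or its TGACG core on either strand.
Fosl1: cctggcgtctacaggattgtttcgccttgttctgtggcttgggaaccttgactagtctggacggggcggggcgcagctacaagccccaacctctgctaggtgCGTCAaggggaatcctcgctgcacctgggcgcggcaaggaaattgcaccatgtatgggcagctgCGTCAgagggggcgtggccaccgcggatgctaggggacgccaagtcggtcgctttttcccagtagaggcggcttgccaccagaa
Junb: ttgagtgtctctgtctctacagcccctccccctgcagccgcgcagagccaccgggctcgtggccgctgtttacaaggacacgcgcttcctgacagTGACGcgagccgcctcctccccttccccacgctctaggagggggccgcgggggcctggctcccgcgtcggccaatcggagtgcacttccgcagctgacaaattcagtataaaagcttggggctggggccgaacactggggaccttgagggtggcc
Jund: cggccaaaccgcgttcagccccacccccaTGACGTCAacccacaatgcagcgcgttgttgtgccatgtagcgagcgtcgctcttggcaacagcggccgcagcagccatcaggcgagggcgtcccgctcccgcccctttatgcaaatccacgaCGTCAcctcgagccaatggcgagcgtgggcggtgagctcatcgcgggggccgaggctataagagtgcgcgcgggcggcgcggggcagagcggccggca
Over both strands, the TGACG core was matched at 2 places in Fosl1, at 1 in Junb and at 3 in Jund, where 2 of the matches lie inside the CRE, which reads the same on both strands. The windows of Fosb and Fosl2 held neither the core nor the CRE. Among 33469 promoter windows of this length, 18.2% held the core and 1.59% the full CRE. The TRE (TGACTCA), present in 4.05% of windows, and the CArG box of serum response elements, present in 1.50%, were found in none of the 5 windows. A match is a description of letters and no evidence of binding.

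The members differed in how far their levels ranged over the 55 arrays. Fos, the prototype Fos protein, was well above background on all 55 arrays at levels from -1.53 to 4.11 with a median of 1.37. Atf3, which can repress as well as activate transcription, was likewise above background on all 55 and ranged from -0.59 to 6.46 with a median of 3.82. Fosl1, whose protein lacks the activation domain of Fos, ranged from -4.78 to 3.99 and was well above background on 40 arrays. The other members with dim arrays were Fosb (36 arrays above background, -4.81 to 2.42) and Junb (53 arrays, -3.83 to 2.67), a Jun protein of weaker activity than Jun. The remaining 3 members were well above background throughout and moved less. Jun, the strongest activator of the family, lay between 5.63 and 7.49, Jund, the Jun gene that most cells express without a stimulus, between 6.59 and 9.02, and Fosl2 between -0.34 and 2.55. From the lowest to the highest array this is a 3.65-fold range for Jun and a 132-fold range for Atf3.

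**Figure D1:**
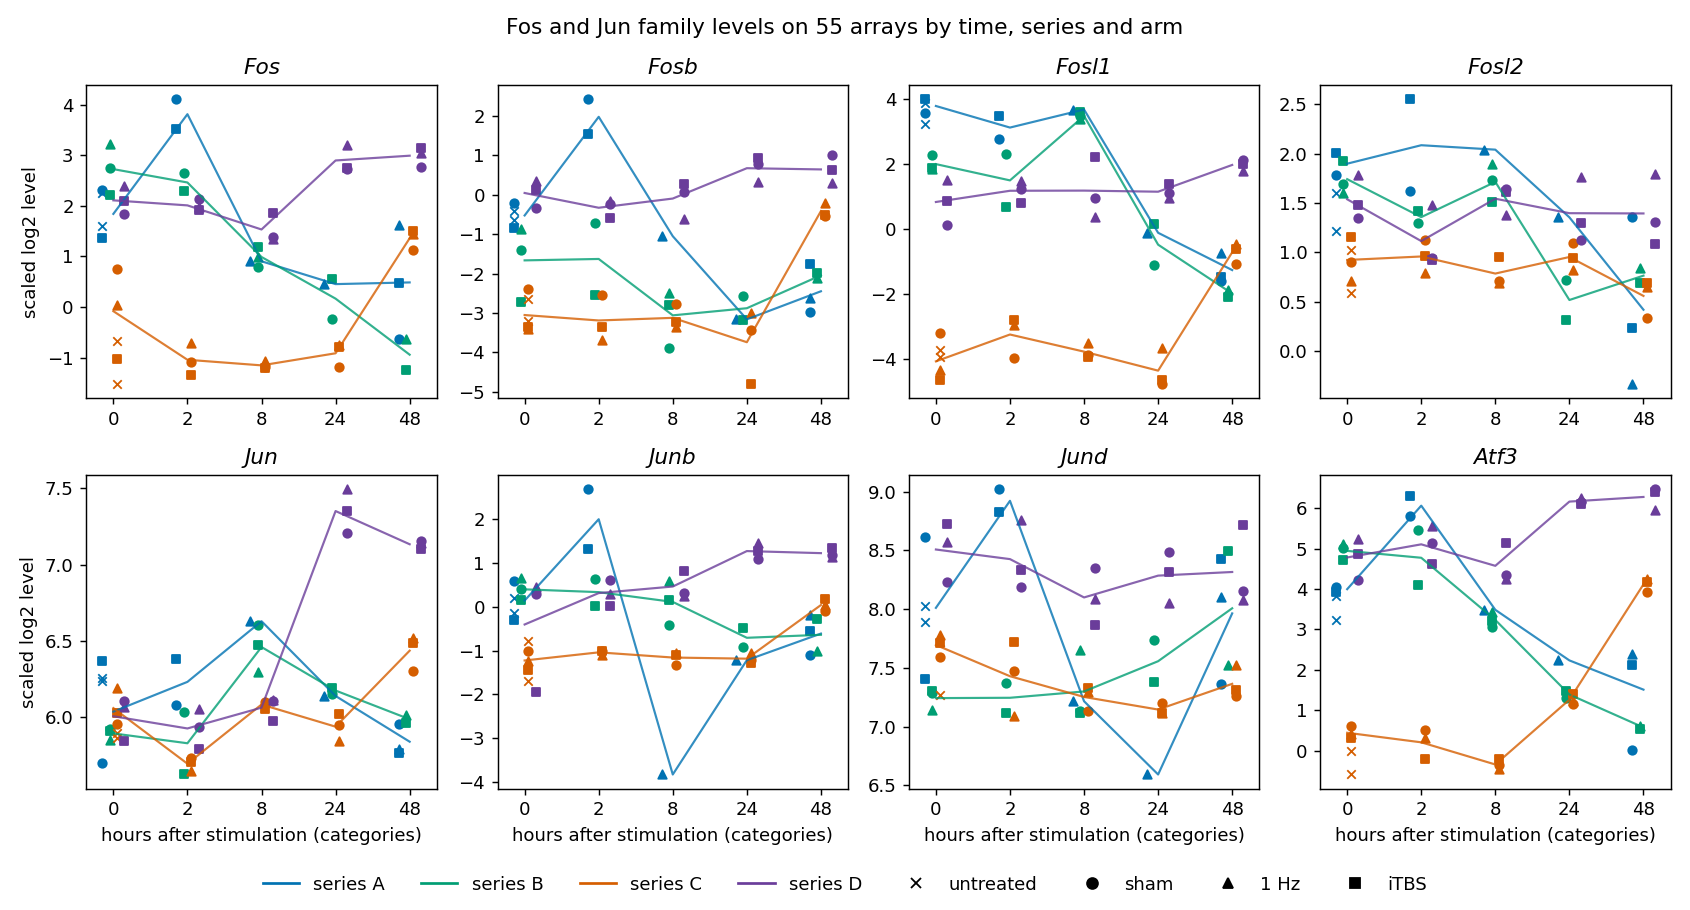
Scaled log2 level (0 is the mean of the array) of each of the 8 members on every array against time after stimulation in hours, with the series as colour, the arm as marker, and lines joining the means of the stimulated and sham arrays of each set. Markers of 1 set lie close together while the 4 series run apart, most clearly for Atf3, Fos and Fosl1.

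The first question of the design was whether either protocol changed these genes. It was asked at each time from the group means and within sets. No member was called in either direction in any of the 80 comparisons of a stimulated group with its sham group (limma, adjusted p under 0.05 over 35694 probes, where 0.0014% of all probe comparisons were called). None of the 80 reached an unadjusted p under 0.05, and the smallest was 0.173. The levels of stimulated and sham arrays overlapped in all 80, where 2.64% of all probe comparisons did not overlap. The group-mean differences ran from -1.65 to 0.79 on the log2 scale with standard errors of 0.316 to 2.59 among the 80, and the 95% intervals reached from -6.54 to 5.57, so a change of several fold in the most variable members was not detectable this way.

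Within sets, where each stimulated array is set against the sham array of its own series and time, the errors were smaller. The 80 differences ran from -0.96 to 0.98 with standard errors of 0.120 to 0.523, and again none was called (0.00392% of all probe comparisons were). Of the 80 comparisons, 8 had an unadjusted p under 0.05, and 6.83% of all probe comparisons did. The 95% intervals of all 80 lay between -1.73 and 1.72. Jun was the most tightly bounded, with every interval between -0.39 and 0.44.

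Of those 8, the largest in size at 0 h and 2 h were lower after iTBS. Junb differed from sham by -0.96 at 0 h (SE 0.27, limma adjusted p = 0.0961, where 0.0308% of all probes were called). Most of it came from the series D array of iTBS replicate 4, where Junb was at -1.94 and not well above background against 0.28 in sham and 0.45 after 1 Hz, and without that array the difference was -0.50. In the other series the iTBS and sham levels at 0 h were -0.31 and 0.59 (A), 0.14 and 0.40 (B), and -1.44 and -1.01 (C), so iTBS was the lower in all 4. Fos differed by -0.75 at 0 h (SE 0.28, adjusted p = 0.19), and by -0.40 without sham replicate 3. Fos at 0 h stood at 2.31 in sham and 1.37 after iTBS in series A, at 2.75 and 2.21 in B, at 0.74 and -1.03 in C, and at 1.84 and 2.10 in D, where iTBS was the higher. At 2 h the differences after iTBS were -0.96 for Fosb (adjusted p = 0.385) and -0.65 for Junb (adjusted p = 0.401), and without sham replicate 3 the Junb difference was -0.41.

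The other 4 were higher after stimulation, all at 48 h. Fos was higher by 0.98 after 1 Hz (SE 0.314, adjusted p = 0.191). Its sham level in series A was -0.63 against 1.61 after 1 Hz, while sham and 1 Hz were at 1.13 and 1.44 in series C and at 2.78 and 3.05 in series D. Without that sham array of series A (replicate 1) the difference was 0.53. Atf3 was higher by 0.74 after 1 Hz (adjusted p = 0.32) and by 0.75 after iTBS (adjusted p = 0.579), and both rested on the same sham array, at 0.02 against 2.39 and 2.13: without it they were -0.01 and 0.00. Both Atf3 comparisons share their sham arrays. Jund was higher by 0.65 after iTBS (adjusted p = 0.572), and by 0.41 without the same sham array.

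Over the 13 sets that hold both, Fos was higher after 1 Hz than in sham in 10 and Atf3 in 8, and over 17 sets iTBS exceeded sham in 9 for both genes. Taken as the mean of the 5 times, the 1 Hz difference of Fos was 0.36 (SE 0.153, unadjusted p = 0.0243, limma adjusted p = 1), and none of the 16 such means was called (0% of all probe comparisons were called and 1.89% had an unadjusted p under 0.05). Neither was any of the 40 direct comparisons of iTBS with 1 Hz by limma, where 0 of 40 had an unadjusted p under 0.05 (0.00168% of all probe comparisons were called). These counts describe members that share arrays and are not separate trials.

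**Figure D2:**
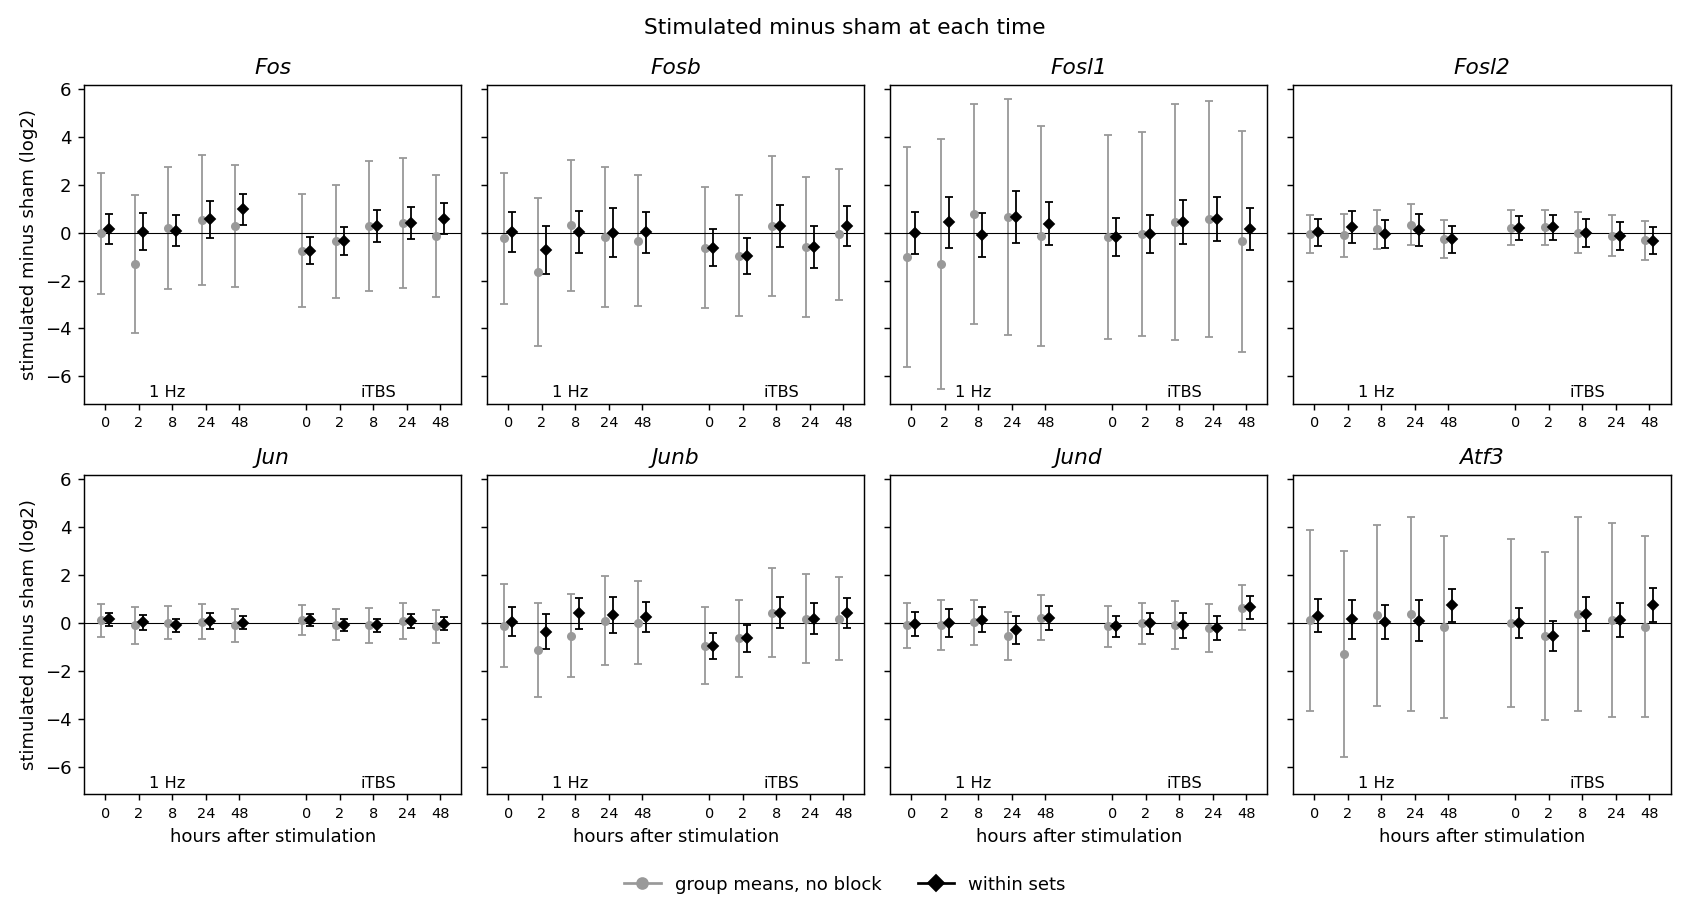
Difference of the stimulated arm from sham (log2) for each member at each time, from group means (grey) and within sets (black), with 95% intervals. The intervals within sets are the narrower ones and lie between -1.73 and 1.72, and no difference passed the adjusted threshold.

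The untreated cultures asked whether sham handling itself moved the family. From group means, limma called none of the 8 members, with 0 of 8 at an unadjusted p under 0.05 (0.0028% of all probes were called). The untreated minus sham difference at 0 h was -1.86 for Atf3 (SE 1.74) and -1.50 for Fos (SE 1.17), and the smallest of the 8 unadjusted limma p-values was 0.207. The untreated arrays came from series A and C alone. In A, Atf3 stood at 3.82 and 3.24 in untreated cultures and at 4.05 in sham, and in C at -0.01 and -0.59 against 0.61, so the untreated levels followed the series. With the set as a block the differences were -0.57 for Atf3 (limma adjusted p = 0.798) and -0.79 for Fos (limma adjusted p = 0.5). The unadjusted limma p of Fos in that fit was 0.0155, and no member was called.

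What did separate the arrays was the series and the set. For Atf3 the SD between the means of the 20 sets was 2.17 and the SD between arrays of 1 set was 0.467, a ratio of 4.64. The ratio was 4.78 for Fosl1, 3.41 for Fos, 2.89 for Jun, 2.83 for Fosb and 2.66 for Junb, against a median of 1.31 over all probes tested. Fosl2 (1.50) and Jund (1.77) were nearer to that median. Of all probes, 99.1% had a lower ratio than Atf3 and 62.8% a lower ratio than Fosl2. Between the lowest and the highest set mean, Atf3 spanned 98.0-fold, Fos 31.2-fold and Jun 3.15-fold, all well above background. The ratios of Fosl1, Fosb and Junb include 4, 4 and 1 sets in which the gene was at background, and with such sets held at their bound Fosl1 spanned at least 132-fold.

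**Figure D3:**
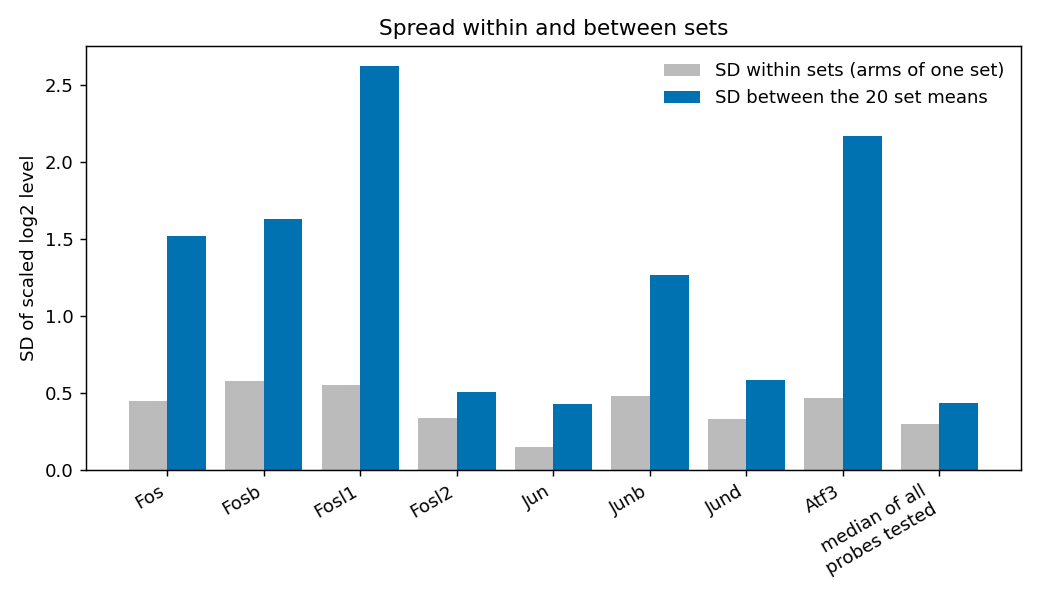
Paired bars of the SD between the 20 set means and the SD between arrays of a set (both in log2 units) for the 8 members, with the median of all probes tested (0.43 between and 0.296 within). Among the members, the bar between sets exceeds the bar within sets most for Fosl1 and Atf3, and least for Fosl2 and Jund.

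All 8 members differed between the series (limma F test beside group), as did 75.4% of all probes, so this count is near what most genes did. The adjusted p of the F test was 3.28e-09 for Fosl1, 4.63e-07 for Fosb, 7.83e-07 for Atf3 and 2.57e-06 for Fos among the variable members, and 0.0191 for Jun. Of the 48 pairwise comparisons 26 were called, where 42.2% of all probe comparisons were. Arrays of a set moved together, so these p-values over arrays are too small. With 1 value per set, 5 of the 8 remained past the threshold (47.3% of all probes), namely Fosl1 (adjusted p = 0.00299), Fosb (0.0161), Atf3 (0.0201), Jund (0.0313) and Fos (0.0354), and 10 of the 48 pairs (22.1% of all probe comparisons). Without series C, 3 of the 8 F tests passed (56.4% of all probes), and without series D 5 (50.1%).

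All 8 members were lower in C than in D (52.5% of all probes differed between C and D in either direction, 28.7% in this one). The difference was -4.64 for Fosl1 (SE 0.614), -4.34 for Atf3 (SE 0.593), -2.94 for Fosb and -2.74 for Fos. In series C, Fosl1 was well above background on 3 of 17 arrays and Fosb on 6, so these fitted differences of Fosl1 and Fosb are partly against background levels. The difference was -1.53 for Junb, -0.94 for Jund, -0.56 for Fosl2 and -0.47 for Jun, the smallest. The array levels of Atf3 averaged 0.97 ± 1.61 (SD, n = 17) in C and 5.38 ± 0.81 (SD, n = 15) in D, with 3.40 ± 1.75 (SD, n = 11) in A and 3.17 ± 1.80 (SD, n = 12) in B. Fos followed the same order, at -0.45 ± 1.02 (SD, n = 17) in C, 1.21 ± 1.44 (SD, n = 12) in B, 1.63 ± 1.38 (SD, n = 11) in A and 2.31 ± 0.61 (SD, n = 15) in D. For neither gene did A and B differ by the test, with differences of 0.19 for Atf3 (SE 0.744) and 0.38 for Fos (SE 0.518). Series A and B were above C by 2.31 and 2.12 for Atf3 and by 1.98 and 1.60 for Fos, and all 4 were called (42.9% of all probes between A and C, 32.7% between B and C). Each of these comparisons is also one between slides. Atf3 was called between A and D, at -2.03, while Fos, at -0.76, was not (adjusted p = 0.213, 41.7% of all probes). With 1 value per set none of these 5 calls passed the threshold. The limma adjusted p was then 0.114 and 0.278 for Atf3 and 0.0802 and 0.22 for Fos in A and B against C, and 0.173 for Atf3 in A against D. The differences of Atf3, Fosl1, Fosb, Fos and Jund between C and D did pass in that fit, with adjusted p up to 0.0166. Of all probes, 27.9% passed between C and D in the same fit.

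At 0, 2, 8 and 24 h no array of series C had Fosl1 above background, so its differences there are bounds. At 0 h it was at least 99.2-fold higher in A, 28.8-fold in B and 12.8-fold in D than in C, and at 8 h at least 107-fold, 93.0-fold and 18.9-fold. The bound sets the mean of the bright arrays against the lowest signal that counted as well above background. Fosb was not above background in C at 8 h and 24 h, where D was at least 7.84-fold and 12.8-fold higher.

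The change over time also differed between series for all 8 members (limma F test of series by time), as it did for 39.4% of all probes. This test takes the arrays of a set as replicates, and each series has a single set at each time. Its p-values therefore show differences between sets, and a time course cannot be told apart from other such differences. The adjusted p was 7.59e-11 for Atf3, 4.43e-09 for Fosl1, 1.76e-08 for Fos, 2.59e-07 for Junb, 7.62e-07 for Jun and 1.56e-06 for Fosb, and 0.0229 for Jund and 0.0294 for Fosl2. With the slide as a block, 6 of 8 passed (7.03% of all probes), with Jund at an adjusted p of 0.225 and Fosl2 at 0.617. A mean over the series is therefore a poor summary of time here. In the fit with series as an additive term, 1 of 32 member comparisons with 0 h was called (10.8% of all probe comparisons). That was Fosl2, which fell by 0.69 at 48 h (SE 0.192, adjusted p = 0.00669, where 27% of all probes were called), and with 1 value per set its adjusted p was 0.0983. Its other 2 probes fell by 0.58 and 0.60 and were called as well.

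Within each series, 38 of the 128 changes from 0 h were called (9.38% of all probe comparisons). This fit was chosen after the data had been seen and uses the up to 3 arrays of a set as replicates, whatever their arm. Each series has a single set at each time, so the p-values measure the spread within sets, and time in a series cannot be told apart from other differences between its sets. When the arrays of the sets compared were left out one at a time, 21 of the 38 calls stayed past the threshold each time. The other 17 were lost at least once. The single array of series A at 8 h and at 24 h could not be left out. Calls at those times were therefore tried only without arrays of 0 h. In series A, Atf3, Fos, Fosb and Junb were higher at 2 h, and the 10 changes called at 8, 24 and 48 h were lower (5.28%, 4.93% and 19.6% of all probes were called). Atf3 was at 4.05 (sham) and 3.94 (iTBS) at 0 h, at 5.82 and 6.30 at 2 h, at 3.48 at 8 h (1 Hz), at 2.23 at 24 h (1 Hz), and at 0.02, 2.39 and 2.13 (sham, 1 Hz, iTBS) at 48 h. The rise at 2 h therefore stood in the sham array too. At 2 h the changes were 2.50 for Fosb (SE 0.557), 2.07 for Atf3, 1.97 for Fos and 1.86 for Junb, and 3.18% of all probes were called, 1.37% as higher. Each of these 4 calls rests on 2 arrays against 2 and was lost without single arrays, with adjusted p up to 0.122 for Fosb, 0.114 for Atf3, 0.227 for Fos and 0.29 for Junb, whose change was 1.23 without sham replicate 3 of 2 h. At 48 h Fosl1 had fallen by 5.10 (SE 0.489), Atf3 by 2.54, Fosb by 1.93, Fosl2 by 1.48 and Fos by 1.47 (8.23% of all probes were called as lower). Without sham replicate 1 of 48 h, Fos had changed by -0.90 and was not called (adjusted p = 0.0657), and Fosb lost its call without another array (adjusted p = 0.0809). Junb fell below background on the single 1 Hz array of series A at 8 h, at least 11.3-fold under 0 h, with no other array of that set to check it.

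In series B limma called none of the 8 at 2 h, where 0 had an unadjusted p under 0.05 (0.0196% of all probes were called), and 10 of the 13 changes called later were lower. At 24 h, 28.2% of all probes were called, 14.4% as lower, and the shares at 8 h and 48 h are given below. Fos was at 2.75, 3.21 and 2.21 (sham, 1 Hz, iTBS) at 0 h, at 2.64 and 2.28 (sham, iTBS) at 2 h, at 0.79, 0.99 and 1.19 at 8 h, at -0.23 and 0.56 (sham, iTBS) at 24 h, and at -0.63 and -1.25 (1 Hz, iTBS) at 48 h. From 8 h on, every array lay below every array of 0 h. At 48 h the changes were -4.42 for Atf3 (SE 0.417), -4.04 for Fosl1, -3.71 for Fos and -0.98 for Fosl2 (33% of all probes were called, 18.1% as lower), and that of Fosl2 lost its call without 1 array (adjusted p = 0.13). The brightest Jund probe was 0.76 higher (adjusted p = 0.0478) while the second differed by -0.05 (adjusted p = 0.952), so no direction is given for that gene. At 8 h Jun was 0.57 higher and Fosl1 1.48 higher (8.03% of all probes were called), the latter with adjusted p up to 0.117 without single arrays.

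In series C the called changes were all at 48 h. At 2, 8 and 24 h limma called none of the 8, with 2, 2 and 3 at an unadjusted p under 0.05 (0.014%, 0.134% and 0.709% of all probes were called). Atf3 was at 0.61, 0.40 and 0.32 (sham, 1 Hz, iTBS) at 0 h, at 1.17, 1.23 and 1.39 at 24 h, and at 3.93, 4.25 and 4.16 at 48 h. The rise stood in the sham array as well as in both stimulated ones. The change at 48 h was 3.67 for Atf3 (SE 0.37, limma adjusted p = 1.12e-07), 2.64 for Fosb, 1.44 for Fos and 1.26 for Junb. Fosb was above background on 1 of 3 arrays of series C at 0 h, so its change is measured partly against background. Leaving out single arrays took Fos to an adjusted p of up to 0.149 and Junb of up to 0.192. Fosl1 became measurable on all 3 arrays, at least 4.39-fold above 0 h. These 5 of 8 were called where 5.63% of all probes were, 3.58% as higher.

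In series D, Jun, Junb and Atf3 were higher at 24 h and 48 h than at 0 h. Jun was at 6.11, 6.07 and 5.85 (sham, 1 Hz, iTBS) at 0 h, at 7.21, 7.49 and 7.35 at 24 h, and at 7.16, 7.14 and 7.10 at 48 h. The highest Jun level in the other series was 6.63, on the 8 h array of series A. The changes at 24 h were 1.34 for Jun (SE 0.129), 1.67 for Junb and 1.38 for Atf3 (19.3% of all probes were called, 10.7% as higher), and at 48 h 1.13, 1.63 and 1.50 (21.7% of all probes, 11.1% as higher). The changes of Junb rested on the iTBS array of 0 h named above (replicate 4), and without it they were 0.94 at 24 h (adjusted p = 0.0535) and 0.89 at 48 h (adjusted p = 0.0602), no longer called. At 2 h and 8 h none of the 8 was called by limma, with 0 and 1 at an unadjusted p under 0.05 (0% and 0.409% of all probes were called).

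**Figure D4:**
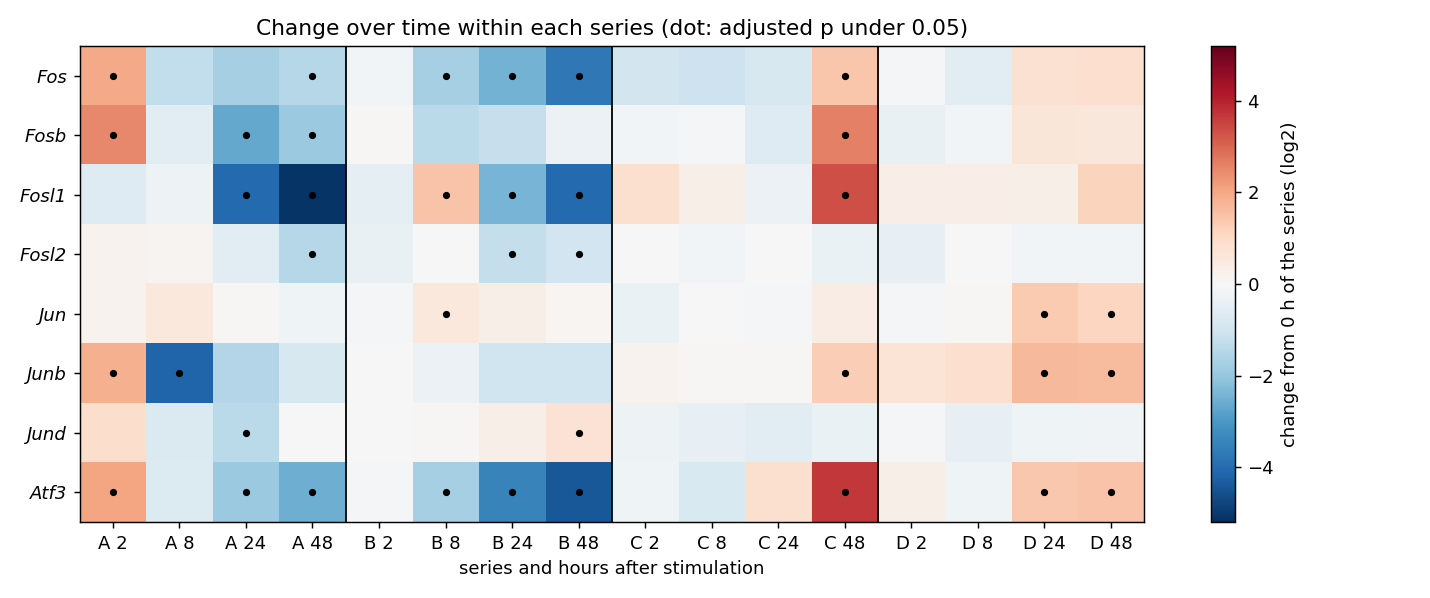
Change of each member from 0 h (log2, colour) at 2, 8, 24 and 48 h within each series, averaged over the arms, with a dot where the adjusted p was under 0.05. Over all times 10 changes were called lower and 4 higher in series A and 10 lower and 3 higher in series B, while the 5 called changes of series C and the 6 of series D are all higher. Of all probe comparisons in this fit, 9.38% were called.

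The members moved together between sets to different degrees. Over the 20 set means, Pearson's r was 0.96 between Fos and Atf3, 0.86 between Fosb and Atf3 and 0.84 between Fos and Fosb, and it was lowest between Fosl2 and Junb at 0.18. These are descriptions over sets that share series and slides, with no test. The genes outside the family whose levels were most like those of Fos over the 55 arrays, out of 10545 genes, were Herpud1 (r = 0.885, rho = 0.874), an endoplasmic reticulum stress gene, Bdnf (r = 0.881), the neurotrophin, and Maff (r = 0.871), a small Maf protein. Within single series r lay between 0.793 and 0.905 for Herpud1 and between 0.714 and 0.901 for Maff, but for Bdnf it was 0.125 in series D against 0.965 in series A. Atf3 was most like Herpud1 (0.927), Cebpb (0.901), another leucine zipper factor, and Iars1 (0.865), an isoleucyl tRNA synthetase. Junb was most like Cars1 (0.829), a cysteinyl tRNA synthetase, Xbp1 (0.783), a transcription factor of the unfolded protein response, and Rnf125 (0.775), a ubiquitin ligase.

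The wider pathway was read by lists of other genes. No gene of the immediate early, partner, upstream or responsive lists was called by limma in a comparison of a stimulated arm with sham, from group means or within sets, and within sets the 18 immediate early genes had an unadjusted p under 0.05 in 13 of 180 comparisons. Among 18 immediate early genes measured, 15 differed between series and 14 in their change over time between series, where 75.4% and 39.4% of all probes did, and the counts of the next lists are to be read against the same shares. The smallest p-values between series were those of Arc (adjusted p = 6.23e-20), Egr4 and Dusp1. Arc, which regulates glutamate receptors at synapses, averaged 4.93 in A, 4.86 in B, 2.09 in C and 2.82 in D. The change over time was led by Ier3 (adjusted p = 2e-08), Egr2 and Klf4. In series A at 2 h, 10 of the 18 immediate early genes were called higher and none lower (1.37% and 1.81% of all probes were). At 48 h in A, 8 of 18 were lower and 2 higher (8.23% and 11.4% of all probes). At that time 13 were lower in B (18.1%), 7 were higher in C (3.58%), and 2 were higher and 2 lower in D (11.1% and 10.6%). These counts come from the fit within series, whose p-values measure the spread within sets.

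Of 11 dimer partners and related leucine zipper factors, 8 differed between series and 8 in their change over time. Maff, a small Maf protein without an activation domain, led the latter (adjusted p = 6.17e-11), followed by Atf4 and Jdp2, a repressor that binds Jun proteins. Maff fell by 2.30 in A and by 2.98 in B at 48 h and was 1.57 higher in C. Of 24 upstream kinases and factors, 16 differed between series and 11 over time between series, the latter led by Crem (adjusted p = 4.52e-08), Elk3 and Srf, the serum response factor. Of 18 genes that respond to AP-1 or to injury, 16 differed between series and 16 over time between series, led by Cd44 (adjusted p = 1.21e-10), Timp1 and Hspb1. Cd44, a hyaluronan receptor, fell by 1.87 in A and by 2.08 in B at 48 h and was 1.19 higher in C and 1.66 higher in D.

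Markers of other cell types and of stress differed between series as well, again beside 75.4% of all probes. The sums given below are led by the brightest probes of a list. They are set between series only, not between lists, and give no share of cells. All 4 oligodendrocyte lineage markers differed between series, and the log2 of their summed level ranged from 6.91 to 8.91 in D against 10.1 to 11 in C, with Mbp, a myelin protein, at 2.57 in D and 9.03 in C. Of 6 endothelial and fibroblast markers 5 differed, with sums of 8.11 to 8.98 in D and at most 6.82 in C, and Col1a1, a collagen, averaged 7.11 in D, 4.15 in C, 1.61 in A and 1.13 in B. Pdgfrb of the same list went the other way, at 3.38 in D and 4.00 in C, and Cldn5 was well above background on 6 of 55 arrays. Of 5 microglial markers 4 differed, with sums of 2.49 to 4.88 in D and 4.49 to 5.78 in C. That sum follows Cx3cr1, at 3.83 in D and 4.92 in C, while Aif1 (-1.19 and -3.40) and C1qa (-0.98 and -4.29) were the higher in D, and Csf1r, a defining receptor, was well above background on 7 of 55 arrays. Of 5 astrocyte markers 4 differed, with sums of 9.59 to 10.9 in D and 10.2 to 10.7 in C, and of 9 neuronal markers 6 differed, with sums of 9.07 to 10.1 and 9.06 to 9.60. Among the astrocyte markers Gfap was higher in D (5.68 against 3.58 in C) and Aldh1l1 lower (3.17 against 4.94). All 4 stress genes measured differed. Trib3, a target of the integrated stress response, averaged 3.77 in D and 0.42 in C, and Ddit3 7.04 and 5.23. The part of these cells and of stress in the levels of the AP-1 genes was not tested.

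Where a member had several probes, they mostly moved alike. The second Jun probe correlated with the brightest at r = 0.87 over the arrays, but its F test between series had an adjusted p of 0.146. The second Jund probe correlated at 0.577 and fell by 0.65 at 48 h against 0 h (adjusted p = 0.0294), where the brightest differed by -0.03 (adjusted p = 0.913), so the probes disagree on the change of Jund over time. All 3 Fosl2 probes fell at 48 h in that fit.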

How the data were processed

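RNA of each sample was hybridised to its own one-colour (Cy3) Agilent array. The authors scanned the arrays and deposited the output of Agilent Feature Extraction 12.0.3.1, and its processed signal, a background-corrected intensity on a linear scale, was used here. The flags for control spots, outliers and spots well above background, deposited as scores of 0 or 1, were used as filters. Spots of a probe were averaged, log2 transformed and scaled as z-scores within each array times the median SD of the arrays (4.06), after the methods of the study. A probe entered the tests if 3 or more arrays flagged it as well above background (35694 did). Tests were two-sided with limma 3.58.1 in R 4.3.3, with Benjamini-Hochberg adjustment over all tested probes and a threshold of 0.05, and were tried on simulated data first. Residual degrees of freedom were 39 for group means, 24 within sets and 36 for series. Probes were named by RefSeq accession (assembly GRCr8). The deposited headers name genome rn4, whose coordinates were not used. Arrays carry no read depth, so their number sets the precision. The array of 1 Hz, 2 h, replicate 2 was left out for its grid.

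Named genes were all members, the 3 genes with the smallest p of each list, and the 3 genes most like Fos, Junb and Atf3. The members, lists and tests were chosen with earlier results of these data known. Fits of time within series and of 1 value per set were added after the data had been seen. Alternatives were the block, the scaling, normexp on the median signal with an offset of 50 (the deposited tables hold no mean signal), the filter, the slide, the series left out and each array left out.

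Replicate numbers in the titles did not pair the samples: deviations of same-numbered arrays correlated at 0.160 on average (lowest -0.462), those of arrays of 1 set at 0.497 (lowest 0.0607).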

Additional observations from a re-analysis of the deposited data

Results flagged for a closer look

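In the sham group at 2 h, Atf3 in replicate 2 had a level of 0.52 while the other sham arrays lay between 5.15 and 5.82, and in the 1 Hz group at 8 h replicate 3 was at -0.46 while the others lay between 3.43 and 4.23. Each stood far outside the range of its group, and both are arrays of series C. The 3 arrays of that series, 1 per arm, averaged 0.21 for Atf3 at 2 h and -0.34 at 8 h, so each flagged array was near the others of its set. A group here is 1 member in 1 group of arrays. Chance alone flags about 1 in 20 groups, and 2 of the 64 groups examined were flagged, no more than chance gives. The groups share arrays and mix series of unlike level, so that rate is only a rough guide.

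By a test of the difference itself, the change over time differed between series for all 8 members, as it did for 39.4% of all probes. The limma adjusted p-values were 7.59e-11 for Atf3, 4.43e-09 for Fosl1, 1.76e-08 for Fos and 2.59e-07 for Junb. They were 7.62e-07 for Jun, 1.56e-06 for Fosb, 0.0229 for Jund and 0.0294 for Fosl2. With the slide as a block, Jund (limma adjusted p = 0.225) and Fosl2 (0.617) did not pass. The test takes the arrays of a set as replicates, so a time course cannot be told apart from other differences between sets.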

How the results depend on the processing

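No member was called between a stimulated arm and sham, between iTBS and 1 Hz, or between untreated and sham under any alternative that left out the array with the bad grid, the replicate block included (0 calls). With all 56 arrays, 3 arm comparisons were called (6 within sets), 3 of iTBS against 1 Hz, 0 of time, 15 series pairs, 4 series F tests, 3 tests of time by series and 51 list comparisons, all over fewer members, since Junb had a missing value there. The arm calls were all for 1 Hz at 2 h, the group of the array with the bad grid. Fosl2 there had an unadjusted limma p of 0.0195 and an adjusted p of 0.0386, so a large part of all probes was called. The share of all probes is not given for these fits, so the counts are not read as a result about the family. Against 0 h, 3 comparisons were called with the slide as a block, 2 without series C, 1 with the replicate block and 0 with 1 value per set. All of these calls were at 48 h. Of all probes at that time, 16.6% were called with the slide block, 21.3% without series C and 5.57% with 1 value per set. Of the series pairs, 10 were called with sham arrays only, 6 without C, 3 without D and 10 with 1 value per set, and of the F tests 2, 3, 5 and 5. Of all probe comparisons, 14.4%, 35%, 28.3% and 22.1% of these pairs and 35.3%, 56.4%, 50.1% and 47.3% of these F tests were called. Leaving out series removes pairs, and sham arrays alone are few. Leaving out single arrays gave 0 to 0 arm calls, 0 to 0 within sets, 0 to 0 for iTBS against 1 Hz, 0 to 0 for untreated, 1 to 2 for time (Jun at 24 h was added without 1 Hz replicate 2 of 24 h, limma adjusted p = 0.0414), 23 to 30 series pairs, 7 to 8 F tests, 6 to 8 tests of time by series and 0 to 3 list calls. The F test of Jun was lost without replicate 3 of any of the 3 arms at 24 h (adjusted p up to 0.0548). The tests of time by series were lost for Fosl2 without any of 5 single arrays (sham replicate 4, iTBS replicates 3 and 4 of 2 h, iTBS replicate 1 of 24 h and of 48 h, adjusted p up to 0.0681) and for Jund without any of 3 (sham and iTBS replicates 3 of 2 h, 1 Hz replicate 1 of 24 h, adjusted p up to 0.0909). The direction turned for Jund with all 56 arrays (A against B -0.14, A against C -0.31), and with the slide as a block Fosb A against D (0.10) and Jun B against D (0.12), whose cause was not tested.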
